A study of Mus musculus with 10 samples.

Results

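Integrins are receptors for the extracellular matrix, each built of 1 alpha and 1 beta chain. The 10 genes described here encode 6 beta chains (Itgb1, Itgb3, Itgb4, Itgb5, Itgb6 and Itgb8) and 4 alpha chains that pair with them (Itgav, Itga2, Itga3 and Itga6). They are 10 of the 22180 genes measured. The genes were named by family, with results of these arrays already known, and their probe sets were selected on mean level. Each gene was represented by a probe set annotated to it alone, and where a gene had several such probe sets, by the one with the highest mean over all arrays. That mean chose the probe set of Itgav and nothing else, since the other 9 genes had no second probe set of that kind. Probe sets differ in brightness, so levels are compared between arrays and not between genes.

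RNA was measured on Affymetrix expression arrays from sorted mouse lung cells labelled as type 2 alveolar epithelial cells (AEC2s), the surfactant-making cells from which flat type 1 cells (AEC1s) can arise. The Axin2+ group held 5 samples from Axin2CreERT2-TdTom mice, sorted as TdTomato+, EpCAM+, CD31- and CD45-, so the label rests on a Cre driven by Axin2, a target of Wnt signalling. The SP-C+ group held 5 samples from SftpcCreERT2-R26REYFP mice, sorted by YFP once tracing had run for 24 h, and their Cre is driven by Sftpc, the gene of surfactant protein C. Titles and age labels put all 10 samples at postnatal day 4, although a description shared by them speaks of P3 and adult cells. All mice were of mixed C57BL/6, 129S6 and CD-1 background, and the labels record no treatment. The tracing time of the Axin2+ mice and the number of animals behind a sample are not stated in the labels. Mouse line, reporter and gate differ between the groups together with the cell label and cannot be told apart from it. No label says that the samples of a group are separate animals, so the spread that p-values measure may be technical in part.

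Epithelial cells hold on to the basement membrane largely through integrins that bind laminin (alpha3 beta1, alpha6 beta1 and alpha6 beta4) and collagen (alpha2 beta1). The alpha v chain pairs with beta1, beta3, beta5, beta6 and beta8, and most of these receptors bind matrix proteins with the tripeptide arginine-glycine-aspartate (RGD). Alpha v beta6 and alpha v beta8 also bind an RGD site in the propeptides of TGF-beta1 and TGF-beta3 and activate these latent cytokines, which in lung epithelium is the best known role of beta6. The TGF-beta2 propeptide lacks this site.

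The 10 genes split into 5 that were higher in Axin2+ arrays and 5 that did not pass the test. Itgb6 was 9.14-fold, Itgb3 4.64-fold, Itgb4 2.93-fold, Itga3 2.31-fold and Itgb5 2.26-fold higher, and in each of these the 5 Axin2+ arrays all lay above the 5 SP-C+ arrays. Itgav, the alpha partner of beta3, beta5 and beta6, was at the same mean level in both groups, and Itgb1, the beta partner of alpha3, did not pass. Itga6, Itga2 and Itgb8 did not pass either, and no member was called lower. All calls are from limma on the log2 values of 22180 genes, two-sided, at a Benjamini-Hochberg adjusted p under 0.05. Of all genes, 8.61% were called higher, 8.95% lower and 17.6% either way, and the groups did not overlap in 15.0%. A call with at least a 2-fold rise was made for 2.89% of all genes and for 5 of the 10 members. The median difference was 0.71 over the 10 members and -0.04 over all genes (log2 units, the Axin2+ mean less the SP-C+ mean). With each array centred on its median gene, the calls over all genes were 1561 higher and 4412 lower, in place of 1909 and 1985, the median of all genes was -0.14, and the same 5 members were called higher.

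**Figure D1:**
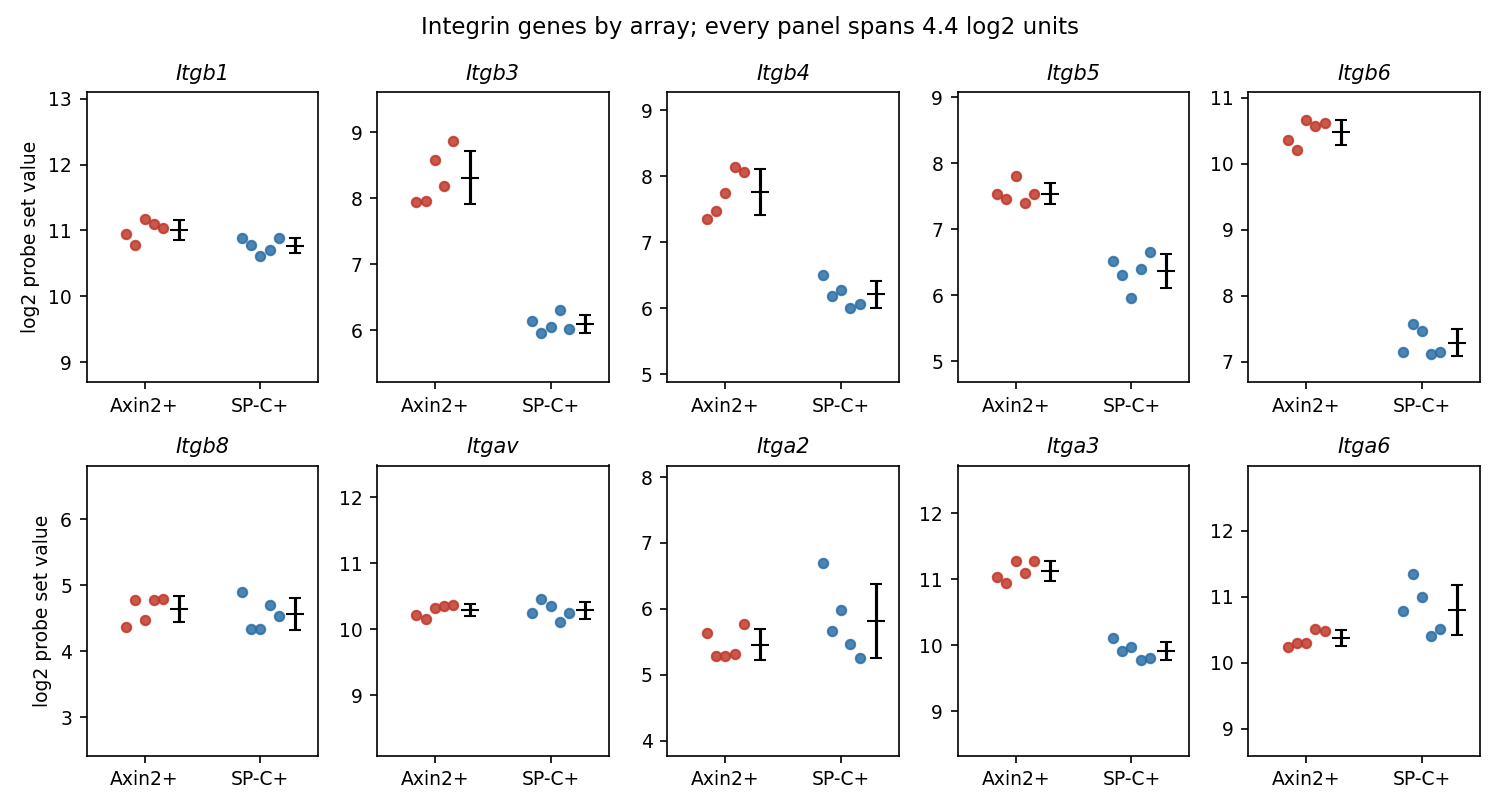
Log2 probe set value (vertical axis) of each integrin gene, with 1 point per array, Axin2+ on the left and SP-C+ on the right (5 arrays each). Black marks give the mean and SD. The groups lie apart for Itgb3, Itgb4, Itgb5, Itgb6 and Itga3 and overlap for the other 5 genes.

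Beta6 was the member that differed most. Itgb6 measured 10.36, 10.21, 10.66, 10.57 and 10.62 in Axin2+ replicates 1 to 5, against 7.15, 7.57, 7.47, 7.12 and 7.15 in SP-C+ replicates 1 to 5. The lowest Axin2+ array was 2.63 log2 units above the highest SP-C+ array. The difference was 3.19 ± 0.12 (log2, SE, n = 5 each, adjusted p = 1.63e-09 in limma), the 51st largest rise of all genes. The exact permutation test over the arrays gave p = 0.00794 (two-sided) for this gene and for each of the other 4 called members, which is the smallest that the 252 possible assignments allow.

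Beta3 and beta5 bind vitronectin and other RGD proteins when paired with alpha v. Itgb3 measured 7.94, 7.95, 8.58, 8.19 and 8.86 in Axin2+ arrays, against 6.13, 5.96, 6.04, 6.31 and 6.02 in SP-C+ arrays. The spread was wider in the Axin2+ group, where replicates 3 and 5 were highest. Itgb3 lay below the median gene on 5 arrays, all SP-C+, so its fold value rests on a dim SP-C+ side. The difference was 2.21 ± 0.16 (SE, adjusted p = 7.20e-07). Itgb5 measured 7.54, 7.45, 7.80, 7.39 and 7.53 in Axin2+ arrays, against 6.51, 6.31, 5.96, 6.39 and 6.65 in SP-C+ arrays. The groups lay 0.74 apart at their nearest arrays, and the difference was 1.18 ± 0.12 (SE, adjusted p = 2.10e-05).

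Their common alpha chain was not called. Itgav measured 10.22, 10.16, 10.32, 10.36 and 10.37 in Axin2+ arrays, against 10.25, 10.46, 10.36, 10.11 and 10.25 in SP-C+ arrays. The groups overlapped, with means of 10.29 ± 0.09 in Axin2+ and 10.29 ± 0.13 in SP-C+ arrays (SD, n = 5 each). The 95% interval of the difference ran from -0.18 to 0.18 log2 units (adjusted p = 0.999). The sign of so small a difference changed with the setting, with values of -0.10 to 0.11 over 21 alternative settings and no call in any. A dimmer second probe set of Itgav averaged 5.85 ± 0.25 in Axin2+ and 6.04 ± 0.34 in SP-C+ arrays and was not called either (difference -0.19, adjusted p = 0.575 over all probe sets). Within an array, the log2 ratio of Itgb6 to Itgav was therefore 3.19 higher in Axin2+ arrays, with an SD of 0.11 in Axin2+ and 0.10 in SP-C+ arrays. The ratios of Itgb3 and Itgb5 to Itgav were 2.21 and 1.18 higher, and in all 3 ratios the groups did not overlap. These ratios describe the arrays and were not tested.

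Itgb8, the other beta chain that activates TGF-beta with alpha v, was dim. Its values were 4.37 to 4.79 in Axin2+ arrays and 4.33 to 4.90 in SP-C+ arrays, with medians of 4.77 and 4.54 in that order, below the median gene of every array. Its difference was 0.07 ± 0.13 (SE, 95% interval -0.20 to 0.35, adjusted p = 0.757), and it was -0.02 with median centring. No detection calls were used here, so a low value cannot be told from background.

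Among laminin receptors, the beta4 and alpha3 genes rose. Beta4 has a long cytoplasmic tail that links laminin to keratin filaments in hemidesmosomes. Itgb4 measured 7.35, 7.48, 7.75, 8.15 and 8.07 in Axin2+ arrays, against 6.50, 6.19, 6.28, 6.01 and 6.06 in SP-C+ arrays. The groups were 0.84 apart at their nearest arrays, and the difference was 1.55 ± 0.16 (SE, adjusted p = 1.38e-05). Itgb4 was dim as well, below the median gene on 4 arrays, all SP-C+. Itga3, whose product pairs with beta1 and binds laminins of epithelial basement membranes, measured 11.03, 10.94, 11.28, 11.09 and 11.27 in Axin2+ arrays, against 10.11, 9.91, 9.98, 9.77 and 9.80 in SP-C+ arrays. It spread little in either group, and the difference was 1.21 ± 0.10 (SE, adjusted p = 1.29e-06).

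The partners of these chains, alpha6 and beta1, were not called. Alpha6 is the only alpha chain known to pair with beta4. Itga6 measured 10.24, 10.30, 10.30, 10.51 and 10.48 in Axin2+ arrays, against 10.78, 11.34, 10.99, 10.40 and 10.51 in SP-C+ arrays. SP-C+ replicates 1, 2 and 3 lay above every Axin2+ array, whereas replicates 4 and 5 lay among them. The difference was -0.44 ± 0.15 (SE, 95% interval -0.77 to -0.10) and did not pass (adjusted p = 0.0710). It passed without SP-C+ replicate 4 (-0.54, adjusted p = 0.0239), without SP-C+ replicate 5 (-0.51, adjusted p = 0.0431) and with median centring (-0.53, adjusted p = 0.0242). The within-array log2 ratio of Itgb4 to Itga6 was 1.99 higher in Axin2+ arrays, with no overlap.

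Beta1 is the most widely shared beta chain. Itgb1 measured 10.94, 10.78, 11.18, 11.10 and 11.04 in Axin2+ arrays, against 10.88, 10.78, 10.62, 10.71 and 10.89 in SP-C+ arrays. Of the Axin2+ arrays, 4 lay above all SP-C+ arrays and replicate 2 did not. The difference was 0.24 ± 0.09 (SE, 95% interval 0.04 to 0.43, adjusted p = 0.0975). It passed without Axin2+ replicate 2 (0.29, adjusted p = 0.0445) and with quantile normalization (0.27, adjusted p = 0.0425).

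Alpha2 is the chain of the collagen receptor alpha2 beta1. Itga2 measured 5.63, 5.29, 5.29, 5.32 and 5.77 in Axin2+ arrays, against 6.69, 5.67, 5.99, 5.47 and 5.26 in SP-C+ arrays. It lay below the median gene on 9 of the 10 arrays, and SP-C+ replicate 1 was the exception. The difference was -0.35 ± 0.22 (SE, 95% interval -0.84 to 0.13, adjusted p = 0.331). SP-C+ replicate 1 was also the array with the highest mean of 8 endothelial markers, 7.33 against 6.05 to 6.67 in the other SP-C+ arrays and 6.25 to 6.46 in Axin2+ arrays. It was highest of the 10 arrays for 8 leukocyte markers too, 6.1 against 5.47 to 5.63 (SP-C+) and 5.21 to 5.39 (Axin2+). The same held for 8 mesenchymal markers, 5.95 against 5.43 to 5.66 (SP-C+) and 5.49 to 5.71 (Axin2+). Its AEC1 marker mean, 9.52, was the highest among SP-C+ arrays (others 9.04 to 9.18). The part of RNA of any of these cell types in the Itga2 value was not tested.

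**Figure D2:**
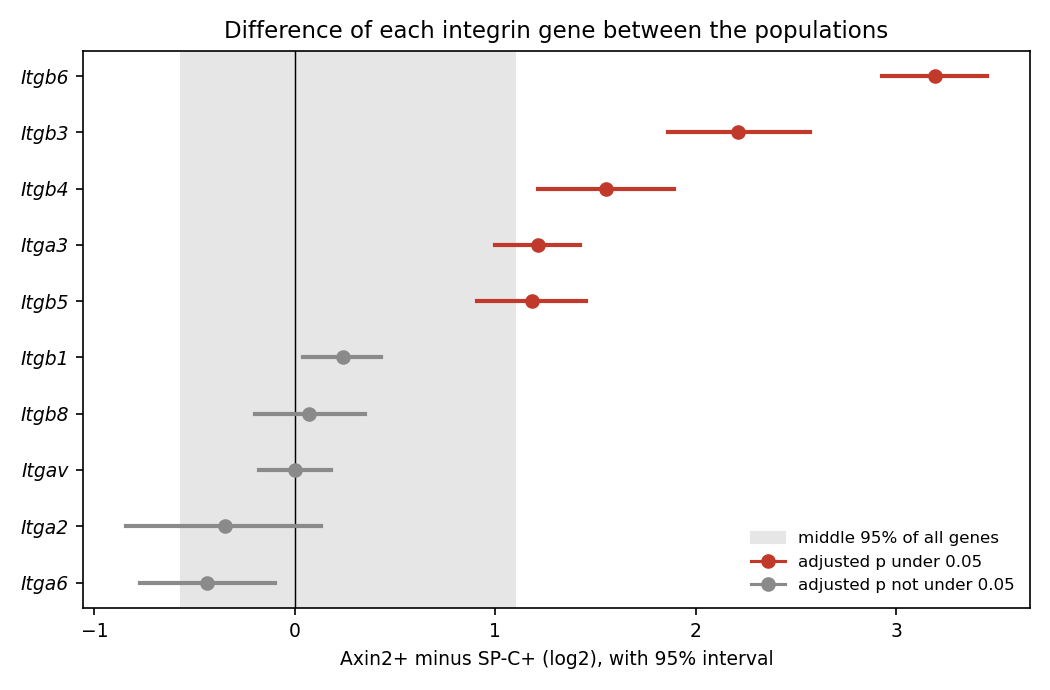
Difference of each integrin gene, Axin2+ minus SP-C+ in log2 units (horizontal axis), with its 95% interval from limma. Red marks genes with an adjusted p under 0.05, and the grey band holds the middle 95% of all genes (-0.57 to 1.10). The 5 called genes lie above the band and the other 5 lie inside it.

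Earlier results on other genes of these arrays had set SP-C+ replicates 1, 2 and 3 apart from replicates 4 and 5, and the fit was repeated without either set. The 5 called members passed in both. Without replicates 1, 2 and 3, Itgb6 was at 3.35, Itgb3 at 2.14, Itgb4 at 1.72, Itga3 at 1.34 and Itgb5 at 1.02. Without replicates 4 and 5, these differences were 3.09, 2.26, 1.43, 1.12 and 1.28. The same split is visible in the array values of Itga6 and, less sharply, Itga2, so their values in these fits describe the arrays and are no further test. Itga6 was at -0.09 without replicates 1, 2 and 3 and at -0.67 without replicates 4 and 5, and Itga2 at 0.10 and -0.66 in the same order.

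**Figure D3:**
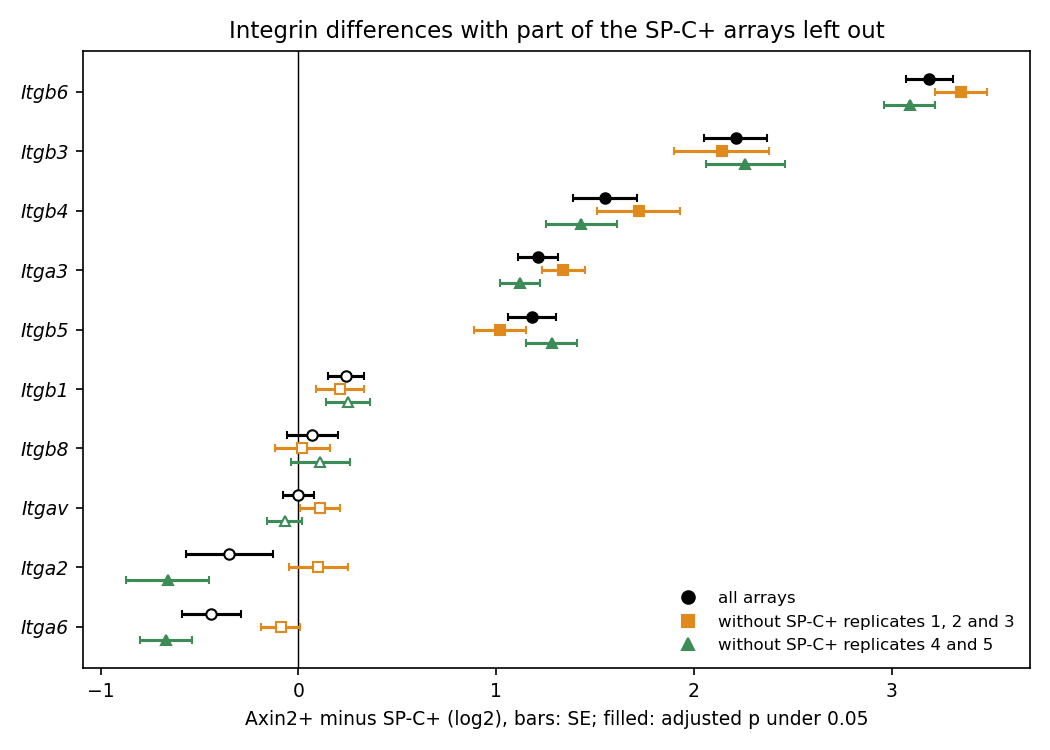
Difference of each integrin gene, Axin2+ minus SP-C+ in log2 units (horizontal axis), from all arrays (circles), without SP-C+ replicates 1, 2 and 3 (squares) and without SP-C+ replicates 4 and 5 (triangles). Bars are SE and filled symbols have an adjusted p under 0.05. The 5 called genes stay called in all 3 fits. Itga2 and Itga6 are filled only without replicates 4 and 5, which restates the split in their own array values.

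Promoter sequence was available in the RefSeq table (GRCm38.p6) for 9 start sites of 7 members. Shown here are the 250 bases before the start of 3 called members (Itgb6, Itga3 and Itgb5) and of Itgav, the partner whose level did not differ. Capitals mark GC boxes (GGGCGG on either strand). Itgb6 has a pair of listed starts, and both are shown: the upstream one covers chr2:60722604-60722853 and the downstream one chr2:60673694-60673943, both on the minus strand. The others cover chr11:95076715-95076964 for Itga3 (minus strand, the more upstream start), chr16:33829415-33829664 for Itgb5 (plus strand) and chr2:83724147-83724396 for Itgav (plus strand).
Itgb6 upstream start: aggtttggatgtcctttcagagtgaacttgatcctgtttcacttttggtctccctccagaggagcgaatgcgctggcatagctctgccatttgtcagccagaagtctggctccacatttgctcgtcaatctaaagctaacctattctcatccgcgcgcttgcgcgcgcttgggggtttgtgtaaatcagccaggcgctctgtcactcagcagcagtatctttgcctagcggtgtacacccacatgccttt
Itgb6 downstream start: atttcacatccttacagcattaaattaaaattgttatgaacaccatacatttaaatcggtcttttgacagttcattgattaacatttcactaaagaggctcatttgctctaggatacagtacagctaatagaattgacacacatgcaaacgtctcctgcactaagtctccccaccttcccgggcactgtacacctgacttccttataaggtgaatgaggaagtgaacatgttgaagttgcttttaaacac
Itga3: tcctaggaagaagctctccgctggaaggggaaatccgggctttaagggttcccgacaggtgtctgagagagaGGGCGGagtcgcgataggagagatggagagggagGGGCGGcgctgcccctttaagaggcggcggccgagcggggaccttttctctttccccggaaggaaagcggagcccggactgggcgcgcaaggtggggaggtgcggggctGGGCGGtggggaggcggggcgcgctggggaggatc
Itgb5: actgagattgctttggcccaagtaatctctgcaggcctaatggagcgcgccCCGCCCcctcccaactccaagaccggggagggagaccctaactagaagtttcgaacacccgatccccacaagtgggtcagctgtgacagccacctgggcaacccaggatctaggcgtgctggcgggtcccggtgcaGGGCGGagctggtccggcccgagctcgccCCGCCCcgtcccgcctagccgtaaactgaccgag
Itgav: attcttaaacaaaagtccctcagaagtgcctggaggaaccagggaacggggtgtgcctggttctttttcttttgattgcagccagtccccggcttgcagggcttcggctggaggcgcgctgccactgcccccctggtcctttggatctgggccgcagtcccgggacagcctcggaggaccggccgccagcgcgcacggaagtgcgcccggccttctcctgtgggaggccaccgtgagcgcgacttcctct

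GC boxes were found in some of these promoters and not in others. The upstream Itga3 start and Itgb5 each held 3 GC boxes, with 67.6% and 65.2% G and C. The second listed start of Itga3, not shown, held 1 with 50.8%, and the promoter of the uncalled Itgb1 held 1 with 68.0%. The Itgb6 promoters held 0, with 52.0% G and C at the upstream and 38.0% at the downstream start, and Itgav held 0 with 64.4%. A GC box was found in 4 of the 9 member promoters and in 32.7% of 32851 promoters of the same length. Also searched on both strands were a TEAD motif (GGAATG, in 12.6% of all promoters), an AP-1 motif (TGANTCA, 6.75%), a TCF motif (CTTTGAT, 3.21%) and a TATA box (TATAAA, 12.4%). Of the 9 member promoters, 1 held a TEAD motif, that of Itgb1, and 0 held any of the other 3. These letters describe the windows and say nothing of factor binding.

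The remaining integrin chains were counted in the same way. Of 16 measured, 0 were higher and 4 were lower in Axin2+ arrays, and the median was -0.22. The shares over all genes, 8.61% higher and 8.95% lower, stand beside this and every later list count. In so short a list, 0 higher is near the share over all genes. All 16 differences were below 0, as were 13331 of the 22180 over all genes. Itga5, the fibronectin receptor chain that pairs with beta1, averaged 7.69 ± 0.20 in Axin2+ and 8.42 ± 0.34 in SP-C+ arrays (SD, n = 5 each) and fell by 0.73 (adjusted p = 0.00483). Itga1, a collagen receptor chain, averaged 6.21 ± 0.15 in Axin2+ and 6.87 ± 0.23 in SP-C+ arrays and fell by 0.66 (adjusted p = 0.00137). Itgae, the partner of beta7, and Itga2b, the platelet partner of beta3, fell by 0.32 and 0.30 (adjusted p = 0.0414 and 0.0290). Both calls were fragile to leaving out 1 array: Itgae lost its call without SP-C+ replicate 2, 3 or 5 or Axin2+ replicate 1, 2, 4 or 5 (adjusted p up to 0.103), and Itga2b without SP-C+ replicate 2 or 3 or Axin2+ replicate 1, 2 or 3 (up to 0.0800). Without SP-C+ replicates 1, 2 and 3, only Itga1 of these was called (-0.79), and Itga5 was at -0.38 (adjusted p = 0.107). With median centring 6 of the 16 were lower.

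Genes of integrin ligands were higher in part. Of 10 laminin chain genes 4 were higher and 1 lower, with a list median of 0.30. Lama3, the alpha chain of laminin-332, averaged 11.96 ± 0.15 in Axin2+ and 9.90 ± 0.40 in SP-C+ arrays, 4.17-fold higher (2.06 ± 0.16 SE, adjusted p = 1.46e-06). Lamb2 rose by 0.98, Lamc1 by 0.63 and Lama5 by 0.32, whereas Lamb1 fell by 0.50. Leaving out Axin2+ replicate 3 ended the call of Lama5 (adjusted p = 0.0546).

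Of 9 collagen genes 5 were higher and 0 lower (median 0.42), and these 5 were all chains of collagen IV, the network collagen of basement membranes. Col4a3 averaged 9.99 ± 0.26 in Axin2+ and 7.27 ± 0.54 in SP-C+ arrays, 6.60-fold higher (adjusted p = 1.92e-06), and Col4a4 was 4.83-fold higher (adjusted p = 8.20e-06). Col4a5 rose by 1.11, Col4a6 by 0.78 and Col4a1 by 0.42. Without SP-C+ replicates 1, 2 and 3, 3 of the 5 were called: Col4a1 was at 0.19 (adjusted p = 0.263) and Col4a6 at 0.55 (adjusted p = 0.0503). The Col4a1 call was also lost without SP-C+ replicate 3 or Axin2+ replicate 1, 3 or 4 (up to 0.0658).

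Of 13 genes for RGD proteins and related ligands 5 were higher and 3 lower (median 0.23). Fbln5, an elastic fibre protein with an RGD site, averaged 11.79 ± 0.21 in Axin2+ and 8.20 ± 0.47 in SP-C+ arrays, 12.0-fold higher (3.59 ± 0.19 SE, adjusted p = 4.31e-08). Ccn2, a matricellular protein, was 7.61-fold higher (adjusted p = 5.37e-08), and its difference was 1.65 in place of 2.93 with the mean over its probe sets. Ccn1 rose by 1.41, Mfge8, a milk fat globule protein that binds alpha v beta3 and alpha v beta5, by 1.0 and Fbn2, a fibrillin, by 1.21. Fbn2 was at 0.32 without SP-C+ replicates 1, 2 and 3 (adjusted p = 0.227). Edil3, another ligand of alpha v beta3 and alpha v beta5, fell by 0.50. Tgfbi, a TGF-beta-induced matrix protein gene, and Tnc, tenascin C, were at -0.66 and -0.39 (adjusted p = 0.0469 and 0.0392). Tgfbi kept its call only without SP-C+ replicate 2 or 5 among the 10 fits that leave out 1 array (adjusted p up to 0.109), and Tnc only without SP-C+ replicate 2 or Axin2+ replicate 1 (up to 0.0969).

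Of 8 genes for TGF-beta ligands and proteins of their latent complexes, 3 were higher and 0 lower (median 0.23). Tgfb2, whose propeptide has no RGD site for these integrins, averaged 10.26 ± 0.21 in Axin2+ and 7.40 ± 0.51 in SP-C+ arrays, 7.24-fold higher (2.86 ± 0.21 SE, adjusted p = 5.77e-07). Ltbp4, a latent TGF-beta binding protein, rose by 0.62, a call lost without SP-C+ replicate 3 or Axin2+ replicate 3 (adjusted p up to 0.0591). Tgfb3, which has the site, was at 0.32 (adjusted p = 0.0448) and kept its call in 3 of the 10 fits without 1 array, those without SP-C+ replicate 3 or 5 or Axin2+ replicate 5. Tgfb1, which also has it, averaged 9.63 ± 0.19 in Axin2+ and 9.58 ± 0.23 in SP-C+ arrays and was not called (0.05, adjusted p = 0.845).

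Inside the cell, talins and kindlins bind beta tails and switch integrins on, and further adaptors tie them to actin. Of 32 such genes 10 were higher and 1 lower (median 0.11). Fermt1, the kindlin of epithelia, averaged 6.72 ± 0.45 in Axin2+ and 4.85 ± 0.26 in SP-C+ arrays, 3.64-fold higher (1.86 ± 0.20 SE, adjusted p = 2.12e-05). Its SP-C+ values, 4.38 to 5.02, lay below the median gene of those arrays (6.27 to 6.32), so its fold value rests on a dim SP-C+ side. Tns3, a tensin, rose by 0.71 (adjusted p = 5.30e-04), and Flna, filamin A, by 0.67. Lims1 and Parva, which encode the PINCH and parvin parts of the complex with integrin-linked kinase, rose by 0.61 and 0.57, and their partner Rsu1 by 0.35. Vcl, vinculin, rose by 0.50, Tln1, talin 1, by 0.40, Tns1 by 0.37 and Tln2 by 0.46. Rsu1 and Tns1 lost their calls without Axin2+ replicate 3 (adjusted p = 0.0553 and 0.0532), and Tln2 without SP-C+ replicate 1 or 3 or Axin2+ replicate 1, 2, 3 or 4 (up to 0.0894). Ptk2b, a kinase related to focal adhesion kinase, fell by 0.47 (adjusted p = 0.00800). Fermt2, the widely expressed kindlin, was at 0.11 (adjusted p = 0.421).

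Of 8 hemidesmosome and tetraspanin genes 2 were higher and 1 lower (median 0.11). Cd151, the tetraspanin that associates with alpha3 and alpha6 integrins, rose by 0.49 (adjusted p = 3.60e-04), with 11.06 ± 0.07 in Axin2+ and 10.58 ± 0.08 in SP-C+ arrays. Cd9, another tetraspanin, was at 0.25 (adjusted p = 0.0432) and kept its call only without SP-C+ replicate 1 or 2 or Axin2+ replicate 2 among the fits that leave out 1 array (adjusted p up to 0.102). Dst, the gene of dystonin, whose epithelial form binds beta4, fell by 0.62 (adjusted p = 6.16e-04). Plec, the plectin gene, and Col17a1 were at 0.23 and -0.03 (adjusted p = 0.0671 and 0.889) and were not called. Over these 7 lists, 29 of 96 genes were higher and 10 lower, against 8.61% and 8.95% of all genes. Without SP-C+ replicates 1, 2 and 3 the counts were 26 and 6. Beside the list genes given with that fit above, Lama5, Ltbp4, Rsu1, Tgfb3, Tgfbi and Tln2 were not called (adjusted p = 0.0681, 0.0528, 0.137, 0.274, 0.108 and 0.244). Without SP-C+ replicates 4 and 5 the counts were 31 and 10, and Cd9, Itgae, Tnc and Tns1 were not called (adjusted p = 0.175, 0.0543, 0.13 and 0.0909). Both 26 and 31 include list genes that were not called with all arrays.

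**Figure D4:**
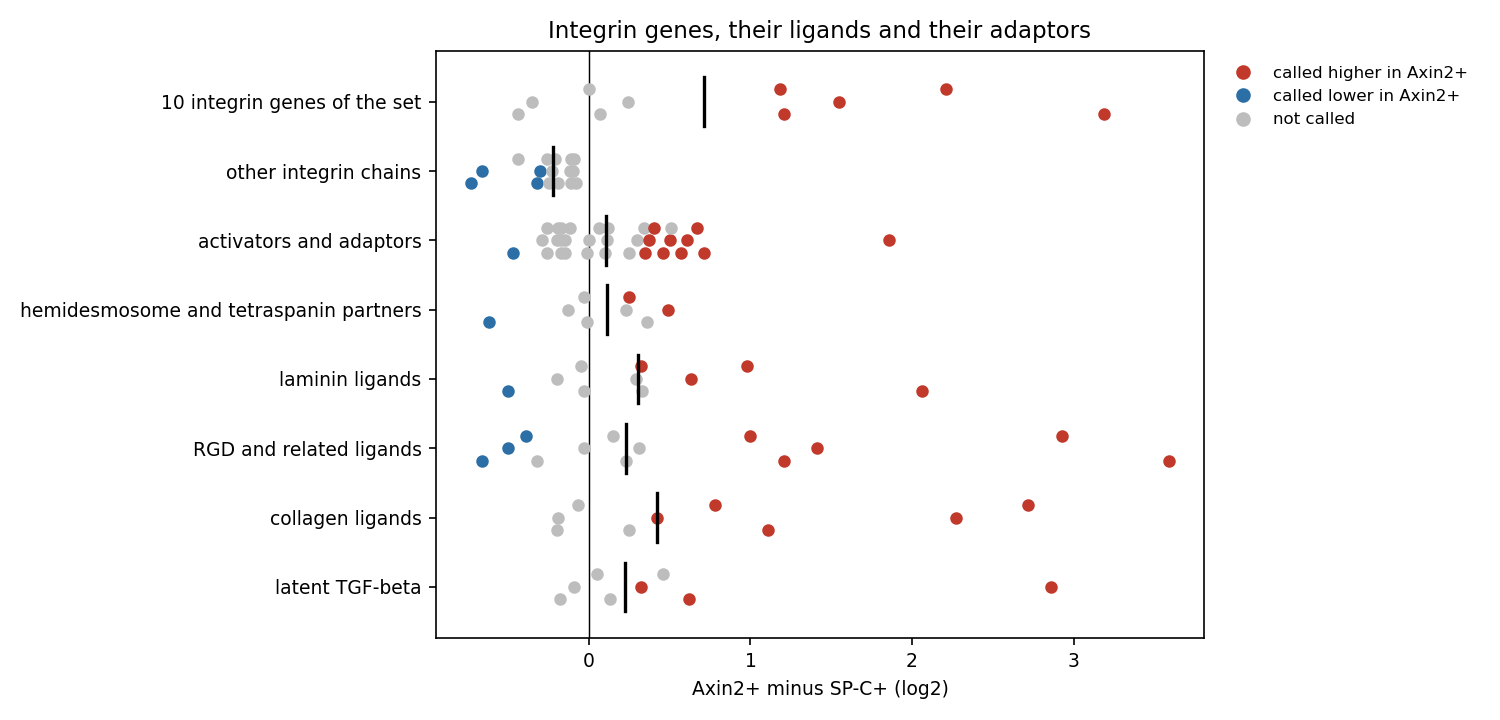
Difference, Axin2+ minus SP-C+ in log2 units (horizontal axis), of each measured gene of the 10 integrin genes and of 7 related lists (rows). Each point is a gene, coloured by its call, and black bars are list medians. The 10 genes have a median of 0.71, and all 16 other integrin chains lie below 0.

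The pattern most like that of Itgb6 was sought as the smallest root mean square difference between gene-centred log2 profiles over the 10 arrays. The nearest genes were Ppp1r36 (0.135 log2 units), Elmod1 (0.171) and Hydin (0.180), with differences of 3.04, 3.19 and 3.35 between the groups. That of Hydin was 1.78 with the mean over its probe sets. No member was called lower, so the same search was not made for a fall.

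Markers of some other cell types were also higher in the Axin2+ group. AEC1 markers were higher in Axin2+ arrays for 12 of 12 genes, with array means of 11.45 to 11.82 in Axin2+ and 9.04 to 9.52 in SP-C+ arrays. Pdpn, a membrane protein of AEC1s, measured 10.93 to 11.45 in Axin2+ and 7.43 to 8.50 in SP-C+ arrays. Ager, another AEC1 marker, was bright in both groups and differed less, with 13.21 to 13.37 in Axin2+ and 12.44 to 12.72 in SP-C+ arrays. The differences over the 12 genes ran from 0.43 (Gprc5a, groups overlapped) to 4.54 (Spock2). Ciliated cell markers were higher for 8 of 9, with means of 7.96 to 8.34 in Axin2+ and 5.59 to 5.80 in SP-C+ arrays, and club cell markers for 5 of 6, with 8.59 to 9.02 in Axin2+ and 6.92 to 7.47 in SP-C+ arrays. In bulk samples, more cells of a type and more RNA per cell cannot be told apart, and the part of these cell types in the integrin differences was not tested. The labelled cell type was checked by its markers. Sftpc lay between 14.08 and 14.15 in Axin2+ and between 13.97 and 14.05 in SP-C+ arrays. The highest value on any array was 14.16, so a difference in Sftpc may be hidden at the top of the scale. Of 11 AEC2 markers, all above the median gene in both groups, 0 were higher and 2 lower. Their array means were 12.82 to 12.95 in Axin2+ and 13.07 to 13.11 in SP-C+ arrays, without overlap. The median difference of the AEC2 list was -0.18.

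Markers of other cells were counted beside the shares over all genes, 8.61% higher and 8.95% lower. In lists this short, 0 or 1 higher is near that share. Endothelial, platelet and mesenchymal markers were called higher for 0 of 8, 0 of 4 and 0 of 8 genes, and basal cell markers for 0 of 4. Of the mesenchymal markers 1 was lower, Pdgfra (-0.49, adjusted p = 0.0164 in limma). Leukocyte markers were higher for 0 of 8 and lower for 2, and Ptprc, the gene of CD45, lay between 3.81 and 4.24 in Axin2+ and between 3.97 and 4.81 in SP-C+ arrays. Cd68, another leukocyte marker, was bright, at 9.17 to 9.84 in Axin2+ and 9.74 to 10.97 in SP-C+ arrays, and was not called. It was the only 1 of the 8 above the median gene in either group. Array means of the platelet markers were 5.04 to 5.37 in Axin2+ and 5.22 to 5.69 in SP-C+ arrays. Platelets carry Itgb3 and Itga2b, and the part of platelet RNA in the values of these genes was not tested. Of 4 mesothelial markers 1 was higher, Msln, with array means of the list at 6.58 to 6.87 in Axin2+ and 5.80 to 6.09 in SP-C+ arrays, and of 3 neuroendocrine markers 1 was higher, Uchl1.

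**Figure D5:**
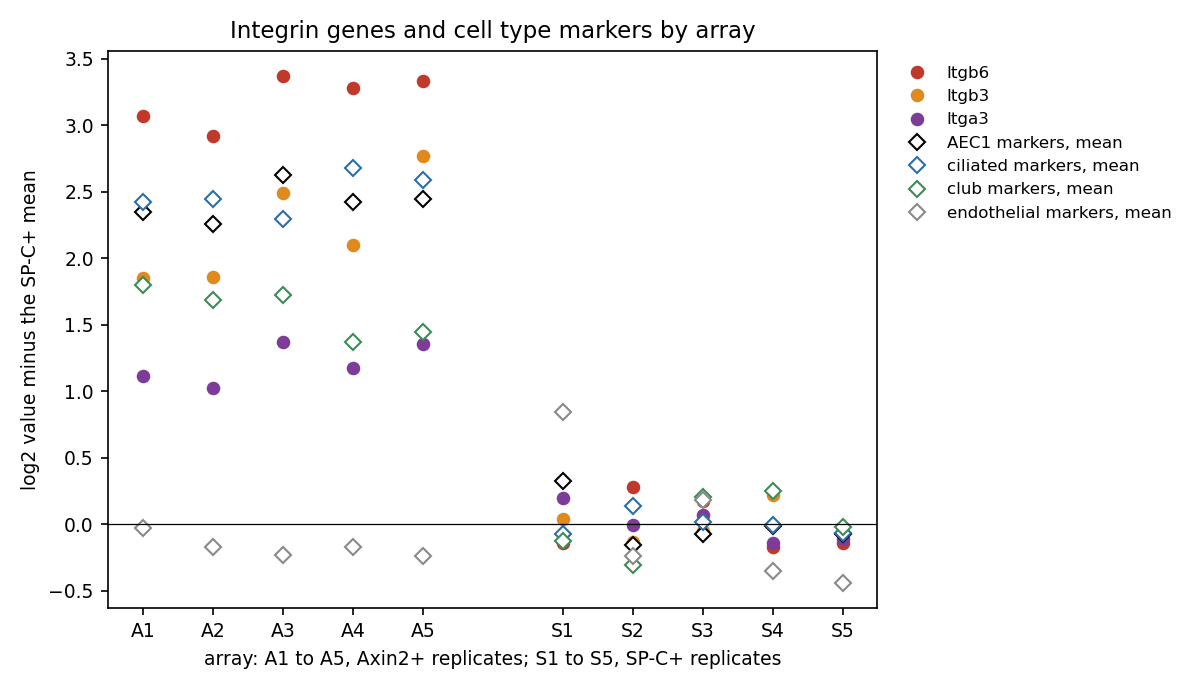
Log2 value minus the SP-C+ mean (vertical axis) on each array, Axin2+ replicates on the left (A1 to A5) and SP-C+ replicates on the right (S1 to S5). Filled circles are Itgb6, Itgb3 and Itga3, and open diamonds are the means of 12 AEC1, 9 ciliated, 6 club and 8 endothelial markers. AEC1, ciliated and club markers are, like these integrins, higher on Axin2+ than on SP-C+ arrays, and endothelial markers are highest on SP-C+ replicate 1.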

How the data were processed

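The data are 10 arrays, 5 Axin2+ and 5 SP-C+, grouped by title. The authors deposited 41345 probe sets per array as normalized log2 values. Tools listed in the submitters' processing notes are oligo, limma and RMA, with no version or role. No source states the log base; base 2 fits the range, 1.69 to 14.16, and array medians were 5.89 to 5.97. RMA-type values understate changes of dim genes, and the number of arrays limits the precision. The platform annotation named 23521 probe sets with 1 gene, 1814 with several and 16010 with none; only the first kind was used, and 1082 genes had several probe sets. Of the 10 members, all were measured.

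Axin2+ and SP-C+ arrays were tested against each other in R 4.3.3 by lmFit and eBayes of limma 3.58.1 on the deposited values without covariates, over 22180 genes, two-sided. Differences are Axin2+ minus SP-C+ with the moderated standard error (SE). On simulated data of 22180 genes, the fit for Axin2+ against SP-C+ was tested and recovered 52% of genes changed by 0.5 log2 units, 94% at 1 and 100% at 2 or 3, and 4.95% of calls were false. Far fewer genes were changed there than were called in the real arrays, and the simulated noise was normal and independent between genes. These rates therefore need not hold for the real arrays.

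Members, lists and tests were chosen with earlier results of these data known. Named are all members, the top 2 called rises and top 2 called falls per list, all called genes of lists with 3 or fewer, and the 3 genes most like the strongest member; other list genes were named after their values were seen. Tgfb1, Fermt2, Plec and Col17a1 were too. Of 114 list names, members included, 106 matched a measured gene, as did 77 of 82 marker names. Alternatives were the replicate block, other scalings, filters, probe set rules and variance settings, and leaving out arrays. Scan dates were not used here.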

Additional observations from a re-analysis of the deposited data

Results flagged for a closer look

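Among 104 groups of 5 arrays (members, called list genes and genes like Itgb6), 9 arrays stood apart, meaning that the gap to the nearest array exceeded 0.71 of the group's range; chance gives about 1 in 20 groups. None was a value of the 10 integrin genes. SP-C+ replicate 1 was high for Col4a3 (8.20, others 6.79 to 7.19), Col4a4 (7.83, others 6.52 to 6.78) and Tns1 (11.47, others 11.02 to 11.14) and low for Itga1 (6.47, others 6.90 to 7.01). Fermt1 was high in Axin2+ replicate 5 (7.51, others 6.35 to 6.61) and low in SP-C+ replicate 3 (4.38, others 4.93 to 5.02). Lama3 was high in Axin2+ replicate 3 (12.22, others 11.85 to 11.93), Fbn2 low in Axin2+ replicate 5 (9.47, others 9.76 to 9.84) and Tnc low in SP-C+ replicate 2 (6.50, others 6.92 to 7.06).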

How the results depend on the processing

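Over 21 alternative settings, Itgb3, Itgb4, Itgb5, Itgb6 and Itga3 kept their direction and call in every one, with differences of 2.08 to 2.30, 1.43 to 1.72, 1.02 to 1.28, 3.09 to 3.35 and 1.12 to 1.34, and 5 or 6 members were called higher. The count of members called lower was 0, but 1 with median centring, 1 among genes above the 50th percentile, 2 without SP-C+ replicates 4 and 5 together, and 0 to 1 when 1 array was left out. Among uncalled members the sign turned for Itgb8 with median centring (-0.02), for Itga2 without SP-C+ replicates 1, 2 and 3 (0.10) and for Itgav with quantile normalization (0.04), without those 3 replicates (0.11) and when 1 array was left out (-0.04 to 0.04). List genes called lower numbered 10, against 18 with median centring, 6 with all probe sets tested, 6 without SP-C+ replicates 1, 2 and 3 together and 6 to 10 when 1 array was left out, 6 of them without SP-C+ replicate 3 or Axin2+ replicate 2; those called higher numbered 21 to 33, against 29. The causes were not tested. Replicate numbers are shared by the groups but no label pairs them, and deviations of same-numbered arrays correlated at -0.229 to 0.0135. With the replicate number as a block, 5 members were higher (Itgb6 3.19, adjusted p = 1.19e-06) and 0 lower, and the calls over all genes numbered 1608 higher and 1371 lower. Of 5 Axin2+ arrays 0 correlated best with their own number. Dim genes such as Itgb8 and Itga2 lie where signal over background limits what can be seen. The same limit holds for the SP-C+ values of called members. Itgb3 lay below the median gene on 5 arrays, Itgb4 on 4 and Itgb5 on 1.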
